A study of Mus musculus with 8 samples.

Results

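The genes described here encode the SR proteins, the hnRNP proteins, the SF3A and SF3B complexes and the Sm and U1 or U2 proteins of the spliceosome, measured in mouse cervical spinal cord. They were chosen by name, as all genes whose symbol starts with Srsf, Hnrnp, Sf3a, Sf3b or Snrp. A gene was kept if the platform annotation gave a probe set this 1 symbol and its mean log2 signal over the 8 arrays exceeded 4.30, a level that 30% of the array's probe sets did not reach. All 46 such genes passed this level, out of 16026 genes tested: 10 Srsf, 17 Hnrnp, 9 Sf3a or Sf3b and 10 Snrp genes. For Hnrnpa1, Hnrnpa3, Hnrnph3, Snrpf and Snrpn every probe set carried several symbols, so these genes have no value here, and Srsf7 was not analysed here.

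RNA came from male C57BL/6 mice, which were 6 weeks old per the labels, in 4 groups of 2 arrays. Control mice received saline for 4 weeks. MPTP mice received 20 mg/kg of MPTP, a toxin of dopaminergic neurons used to model parkinsonism, every 24 h for 4 weeks. Of the MPTP-injected mice, the acupoint group was also needled at GB34 (3 mm deep) and LR3 (1 mm deep) in 14 sessions, and the non-acupoint group was needled 3 mm deep at both hips in as many sessions. Needles were worked by hand every 48 h, starting 2 h after the first injection. No group was needled without MPTP, so needling is seen only on top of the toxin. The labels give every array a mouse number but do not say if extracts were pooled, so p-values and standard errors (SE) reflect the variation among these arrays alone, part or all of which may be technical.

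Splicing removes introns from nuclear transcripts. The U1 and U2 snRNPs, particles of a small nuclear RNA and proteins, mark the 5′ splice site and the branch point. SF3A and SF3B belong to the U2 particle and hold it on the branch point, and the Sm proteins form the ring that most spliceosomal snRNAs share. SR proteins, named for their serine-arginine repeats, mostly promote the use of nearby exons, whereas hnRNP proteins coat nascent transcripts and often repress exons. Several SR and hnRNP genes are known to limit their own output through splicing of their own transcripts, and neurons use both families in neuron-specific exon choice.

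The values are log2 signals of whole-transcript arrays, so 1 unit is a doubling of signal. Mean signals ran from 6.29 (Sf3b5) to 11.80 (Hnrnpk), and since probes differ in brightness these levels are not compared between genes. Within a group the median standard deviation (SD, n = 2) of the 46 genes was 0.10 in control, 0.043 in MPTP, 0.11 in acupoint and 0.076 in non-acupoint arrays. The corresponding medians over all genes were 0.093, 0.054, 0.13 and 0.070.

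Some arrays stood apart before any comparison. The mean of 15 of 15 skeletal muscle markers was 7.48 for control replicate 1, 8.94 for control replicate 2 and 6.99 for acupoint replicate 1. The remaining 5 arrays had means of 5.56 to 5.94. For 5 of 5 meningeal and fibroblast markers it was 8.26 for control replicate 1, 8.49 for acupoint replicate 1 and 6.31 to 7.52 elsewhere. For Schwann cells 1 of 3 markers was measured, at 12.47 on control replicate 1, 12.86 on acupoint replicate 1 and 10.62 to 11.95 elsewhere. Erythroid markers (4 of 4) averaged 6.87 and 6.94 on control, 6.895 on acupoint replicate 1 and 7.29 to 7.86 elsewhere. Markers of the labelled tissue were present on every array, with 8 of 8 neuronal genes averaging 10.72 to 10.76 on control and 10.99 to 11.09 on MPTP-injected arrays, and 8 of 8 cervical Hox genes averaging 7.05 to 7.32. Astrocyte markers (6 of 6) averaged 9.91 to 10.05 on control and 10.50 to 10.65 on the other arrays, and microglial markers (6 of 6) averaged 7.44 in each control and 7.89 to 8.17 on the other 6 arrays. Motor neuron markers (6 of 6) averaged 7.25 and 7.51 on control and 7.78 to 7.93 on the other arrays, and 5 of 6 oligodendrocyte markers 11.20 to 11.23 against 11.37 to 11.59. In a tissue extract, fewer cells of a type and less RNA per cell cannot be told apart. The part of these marker differences in the results below was not tested, except where a value is given.

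**Figure D1:**
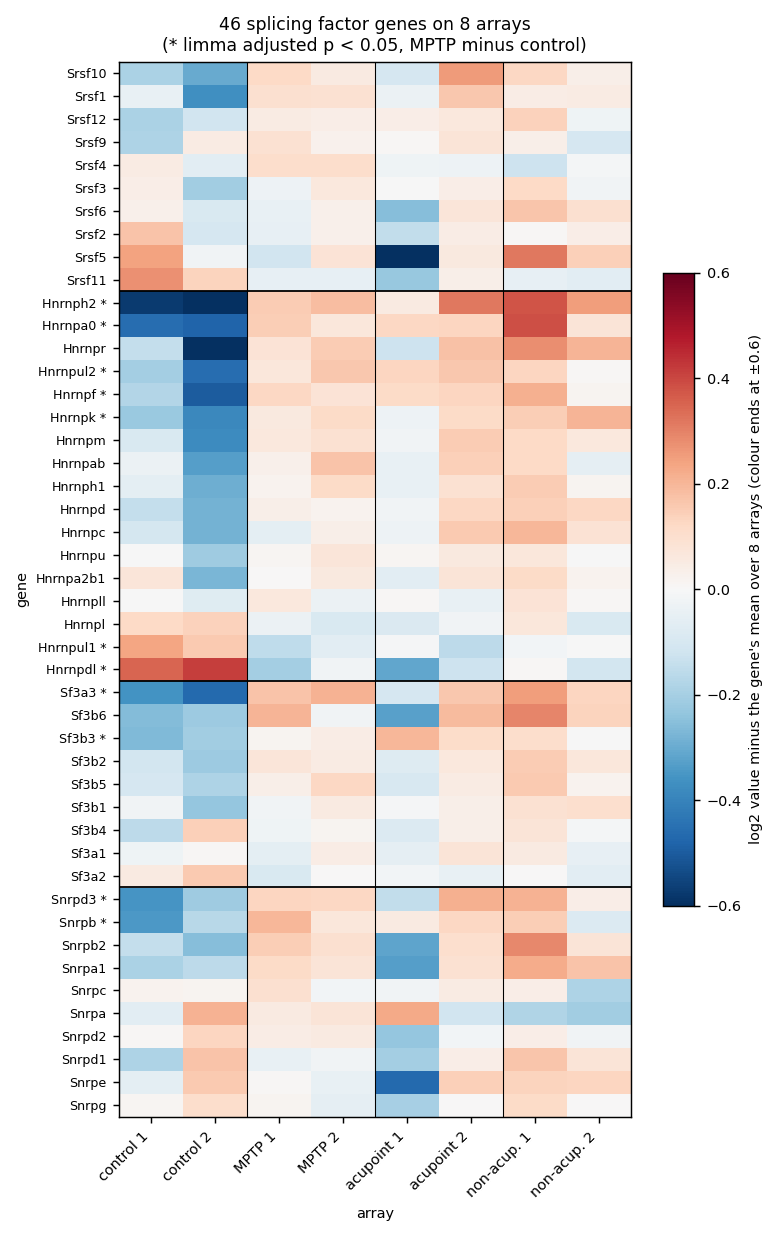
Each row is 1 of the 46 genes and each column 1 array; the colour is the log2 value minus the gene's mean over 8 arrays, and colours end at 0.6 in either direction. Rows are grouped by family and ordered by the MPTP minus control difference; stars mark the 11 genes past the limma threshold in that comparison. Hnrnph2 and Hnrnpa0 are low on both control arrays, Hnrnpdl is high there, and Srsf5 and Snrpe are low on acupoint replicate 1.

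The first comparison asked how MPTP without needling differed from saline. Of the 11 genes that passed, 7 were hnRNP genes. Hnrnph2, which encodes an X-linked protein that binds runs of G in RNA, was 1.79-fold higher. Hnrnpa0, Hnrnpul2, Hnrnpf and Hnrnpk rose 1.31-fold to 1.49-fold, and Hnrnpdl fell 1.41-fold. Outside this family Sf3a3 rose 1.52-fold, and the Sm genes Snrpd3 and Snrpb rose 1.33-fold and 1.31-fold. No SR protein gene passed.

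Past the limma adjusted p of 0.05 were 11 of the 46 genes, against 16.8% of all genes tested, 9 of them higher (13.7% of all genes) and 2 lower (3.1% of all genes). By family the count was 7 of 17 Hnrnp, 2 of 9 Sf3, 2 of 10 Snrp and 0 of 10 Srsf genes. The median log2 difference was 0.16 over the 46 genes and 0.061 over all genes. By family it was 0.24 for Hnrnp and 0.22 for Sf3, positive under each scaling below, 0.11 for Srsf, which turned to -0.047 after cyclic loess, and 0.009 for Snrp, which turned to -0.090 and -0.12 after quantile normalization and cyclic loess. Control and MPTP arrays were fully separate for 31 of the 46 genes, a share near that of all genes (64%). MPTP was above control for 26 of them (41.9% of all genes) and below for 5 (22.1% of all genes).

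Array scaling decides much of this split. The deposited values gave 9 higher and 2 lower. A further quantile normalization gave 6 and 4, where 12.8% of all genes passed as higher and 3.94% as lower. Cyclic loess gave 4 and 4 (8.35% and 4.69% of all genes), and centring each array on its median over all probe sets 17 and 0 (25.1% and 1.36% of all genes). That centring moved the median of all genes from 0.061 to 0.22. The 46-gene median relative to all genes was 0.10 as deposited, -0.030 after quantile normalization and -0.005 after cyclic loess. Centring cannot change it, since it shifts every gene on an array alike. Hnrnph2, Hnrnpa0, Hnrnpk and Sf3a3 passed as higher under each of these 4 scalings. Without control replicate 2, MPTP replicate 1 or MPTP replicate 2 only Hnrnph2 passed in each case, beside 4.25%, 0.431% and 1.21% of all genes. Without acupoint replicate 1 or 2, which enter through the shared spread, 21 did, beside 26.4% and 26.2% of all genes. Of 19 alternatives Hnrnpk and Sf3a3 passed in 16, Hnrnpdl and Hnrnpul2 in 15, Hnrnpf in 14, Snrpb in 11, Hnrnpul1 in 10 and Snrpd3 in 9.

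**Figure D2:**
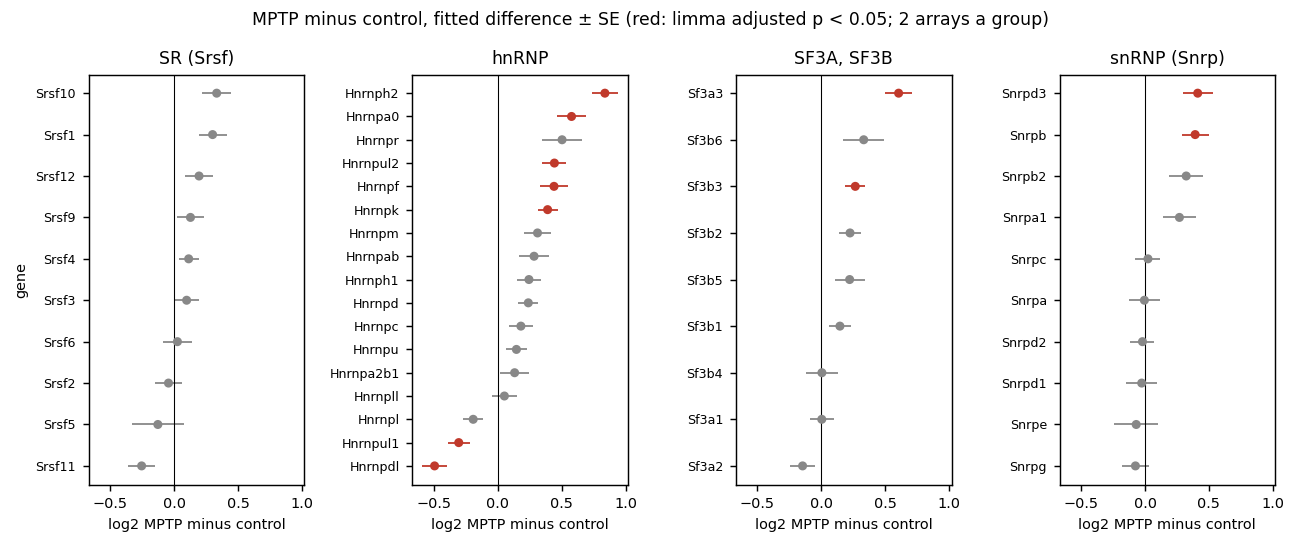
Points are fitted log2 differences, MPTP minus control, for the 46 genes in 4 panels by family; bars are 1 SE on either side, with 2 arrays a group. Red points passed an adjusted p of 0.05 in limma: 7 Hnrnp, 2 Sf3 and 2 Snrp genes.

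Of the G-run binding hnRNPs, which share closely related RNA-binding domains, 3 were measured. Hnrnph2 read 9.23 and 9.05 in control, 9.96 and 9.997 in MPTP, 9.86 and 10.12 in acupoint, and 10.19 and 10.06 in non-acupoint mice. Every array from an MPTP-injected mouse lay above both control arrays. The log2 difference of MPTP minus control was 0.84 (SE 0.10, limma adjusted p = 0.00278), and it passed in 19 of 19 alternative analyses, between 0.685 and 0.996. A second Hnrnph2 probe set differed by 0.79 (SE 0.11, limma adjusted p = 0.00354). Probe sets at near-identical gene copies could not be told apart here, so values of the genes with several probe sets, Hnrnph2, Hnrnpf and Hnrnpk among them, are uncertain to that extent.

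Hnrnpf read 10.05 and 9.72 in control, 10.35 and 10.30 in MPTP, 10.34 and 10.35 in acupoint, and 10.44 and 10.24 in non-acupoint mice. It rose by 0.44 (SE 0.11, limma adjusted p = 0.0243), again with no overlap between control and other arrays. Its other 3 probe sets differed by 0.37 to 0.44. Hnrnph1, the close relative of Hnrnph2, was at 0.24 (SE 0.10, limma adjusted p = 0.117) and did not pass. Within each array, Hnrnph2 minus Hnrnph1 was -1.14 and -1.09 in controls and -0.55 to -0.38 on the other 6 arrays. This difference is unaffected by centring an array. Quantile normalization and cyclic loess can change it, and it was not recomputed after them.

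The promoter stretches of Hnrnph2 and Hnrnpdl are shown because these 2 genes had the largest rise and the largest fall, a choice made after the values were seen. They are the 250 bases before the annotated start, from RefSeq on GRCm38.p6, at chrX:134600929-134601178 (plus strand) and chr5:100039223-100039472 (minus strand). Capitals mark matches on either strand to CCAAT, to the GC box GGGCGG, to the ETS motif CCGGAAG, to TATAAA, to the E-box CACGTG or to the NRF1 motif; overlapping matches would merge into 1 run.
Hnrnph2: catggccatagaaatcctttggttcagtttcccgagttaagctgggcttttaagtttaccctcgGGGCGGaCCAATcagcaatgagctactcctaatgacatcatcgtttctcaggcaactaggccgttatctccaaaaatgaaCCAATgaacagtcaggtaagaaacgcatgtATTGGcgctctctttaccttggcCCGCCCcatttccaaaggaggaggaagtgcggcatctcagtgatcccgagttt
Hnrnpdl: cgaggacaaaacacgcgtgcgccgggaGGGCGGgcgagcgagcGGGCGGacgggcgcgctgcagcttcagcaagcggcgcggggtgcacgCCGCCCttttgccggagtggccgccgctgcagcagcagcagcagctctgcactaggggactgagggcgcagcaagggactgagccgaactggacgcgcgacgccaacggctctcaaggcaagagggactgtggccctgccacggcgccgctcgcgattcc

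The Hnrnph2 stretch was 48.4% G or C and held 5 matches, 3 to CCAAT and 2 to the GC box. That of Hnrnpdl was 72.0% G or C and held 3 matches, all to the GC box. Promoter windows were found for 40 of the 46 genes, 54 windows in all, of which 70.4% held a GC box, 42.6% CCAAT and 33.3% the ETS motif. Among all 32851 windows of this length in the table the shares were 32.7%, 33.8% and 6.9%. TATAAA was in 9.3% of the windows of these genes and 12.4% of all windows, the E-box in 7.4% and 6.0%, and the NRF1 motif in 1.9% and 0.8%. A match is a run of letters, not a measured site, and genes with several windows counted more than once.

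Hnrnpa0, a small hnRNP of the A/B group that binds AU-rich elements, read 7.24 and 7.21 on control arrays. It read 7.84 and 7.76 in MPTP, 7.81 and 7.82 in acupoint, and 8.08 and 7.77 in non-acupoint mice. The control pair was nearly level, and all 6 other arrays lay above it. The MPTP minus control difference was 0.58 (SE 0.11, limma adjusted p = 0.0105), and it passed in 16 of 19 alternatives. Of the other A/B type genes, Hnrnpa2b1 was at 0.13 (SE 0.11) and Hnrnpab at 0.28 (SE 0.12), and neither passed.

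Hnrnpk, whose protein binds C-rich RNA and DNA through KH domains, read 11.58 and 11.41 on control and 11.86 and 11.91 on MPTP arrays. The acupoint arrays read 11.77 and 11.92 and the non-acupoint arrays 11.94 and 12.001, so controls were again lowest. It rose by 0.39 (SE 0.08, limma adjusted p = 0.0120), and its other 2 probe sets differed by 0.33 and 0.40.

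The paralogs Hnrnpul1 and Hnrnpul2, relatives of hnRNP U with roles in the DNA damage response, moved in opposite directions. Hnrnpul2 read 9.97 and 9.72 on control, 10.24 and 10.34 on MPTP, 10.30 and 10.34 on acupoint, and 10.30 and 10.18 on non-acupoint arrays. It rose by 0.44 (SE 0.09, limma adjusted p = 0.0142). Hnrnpul1 read 8.95 and 8.87 on control, 8.56 and 8.65 on MPTP, 8.70 and 8.55 on acupoint, and 8.69 and 8.71 on non-acupoint arrays. It fell by 0.31 (SE 0.09, limma adjusted p = 0.0385), and its call was lost when arrays were centred on their medians. Hnrnpul2 minus Hnrnpul1 within an array was 1.02 and 0.85 in controls and 1.48 to 1.79 on the other 6 arrays. Hnrnpu itself was at 0.15 (SE 0.08) and did not pass.

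Hnrnpdl, a relative of the AU-rich element binding protein encoded by Hnrnpd, read 9.37 and 9.44 on control arrays. The values were 8.82 and 9.004 on MPTP, 8.72 and 8.90 on acupoint, and 9.03 and 8.91 on non-acupoint arrays. Both controls lay above all 6 others. It fell by 0.49 (SE 0.10, limma adjusted p = 0.0110), and its call was lost after median centring (-0.34, limma adjusted p = 0.0751). Hnrnpd, with 10.43 and 10.29 in control mice and 10.55 to 10.71 in all others, was at 0.24 (SE 0.08, limma adjusted p = 0.0627). The within-array difference of Hnrnpd minus Hnrnpdl was 1.06 and 0.85 in controls and 1.59 to 1.83 elsewhere.

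**Figure D3:**
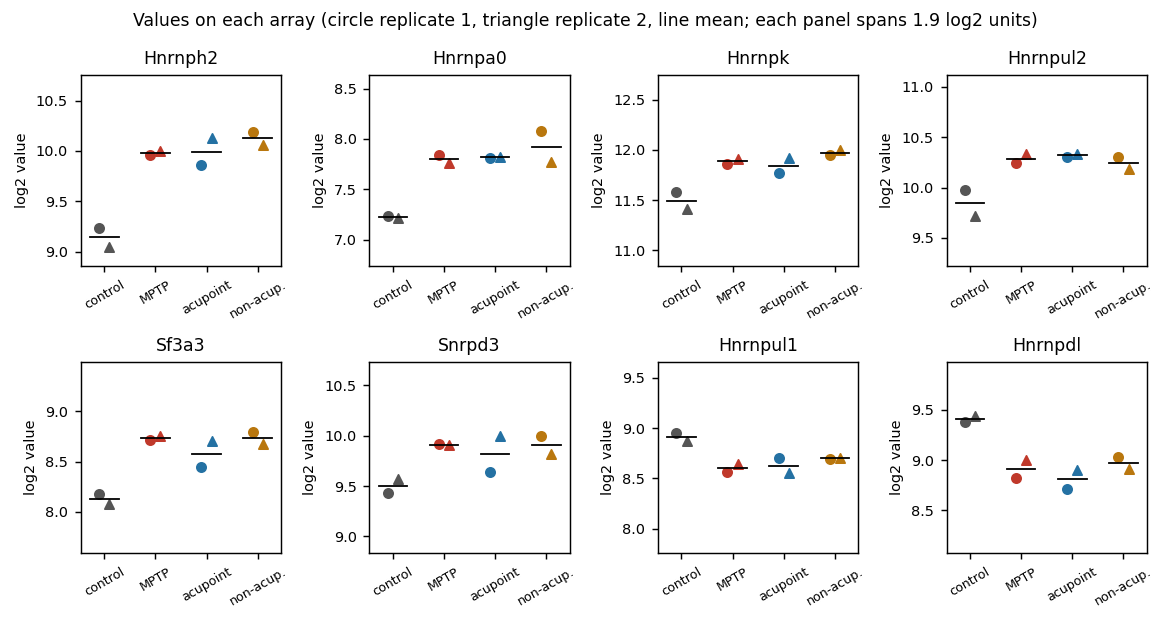
Log2 values of 8 genes on every array, with replicate 1 as a circle, replicate 2 as a triangle and the group mean as a line; the vertical axes are cut but all span the same range. In the first 6 panels both control arrays lie below the other 6 arrays, and for Hnrnpul1 and Hnrnpdl they lie above them. The 8 genes were taken from those that passed in MPTP minus control. Over all genes tested both controls were lowest for 26.1% and highest for 10.9%.

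**Figure D4:**
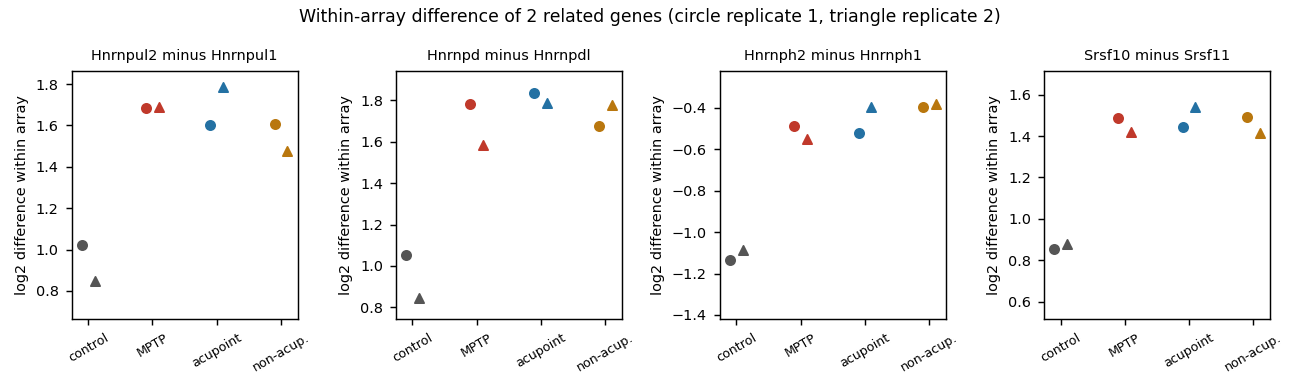
Difference in log2 value between 2 related genes on the same array, by group, with replicate 1 as a circle and replicate 2 as a triangle; vertical axes are cut and span the same range. In each of the 4 pairs both control arrays lie below all 6 others, for example 1.02 and 0.85 against 1.48 to 1.79 for Hnrnpul2 minus Hnrnpul1. The pairs were chosen after the values were seen and carry no test. Except for Hnrnph2 minus Hnrnph1, the separation follows from the single genes. In those pairs both controls were lowest for the first gene and highest for the second.

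The other hnRNP genes were less clear. Hnrnpr, which encodes a relative of the RNA transport protein Syncrip, read 8.20 and 7.72 on control arrays and 8.23 to 8.63 on the other 6. Its control arrays differed by nearly as much as the groups, and its difference of 0.50 (SE 0.15) had a limma adjusted p of 0.0526. Hnrnpm read 9.60 and 9.32 in control, 9.76 and 9.79 in MPTP, 9.68 and 9.85 in acupoint, and 9.82 and 9.76 in non-acupoint mice, and was at 0.31 (SE 0.10). Hnrnpll, with the lowest mean signal of the hnRNP probe sets, read 7.18 to 7.33 on all 8 arrays with no order by group. Hnrnpc, which binds runs of U, was at 0.18 (SE 0.10), Hnrnpll at 0.052 (SE 0.10), and the exon repressor gene Hnrnpl at -0.19 (SE 0.08). None of these passed as deposited. Hnrnpl passed as lower with either of those 2 rescalings, quantile or loess.

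SF3A has 3 subunits, which differed among themselves. Sf3a3 read 8.18 and 8.08 in control, 8.72 and 8.75 in MPTP, 8.44 and 8.70 in acupoint, and 8.79 and 8.67 in non-acupoint mice. It rose by 0.60 (SE 0.10, limma adjusted p = 0.00693). Sf3a1 was at 0.003 (SE 0.09) and Sf3a2 at -0.15 (SE 0.10), and neither passed. Within an array Sf3a3 minus Sf3a1 was 0.36 and 0.22 in controls and 0.64 to 0.92 elsewhere.

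Of SF3B, whose largest subunit Sf3b1 is a frequent site of mutation in blood cancers, 1 of 6 genes passed. Sf3b3 read 8.63 and 8.69 on control, 8.91 and 8.94 on MPTP, 9.10 and 9.01 on acupoint, and 9.00 and 8.89 on non-acupoint arrays. It rose by 0.27 (SE 0.08, limma adjusted p = 0.0491), close to the threshold, and passed in 7 of 19 alternatives. Sf3b2 read 8.70 and 8.59 in control, 8.88 and 8.86 in MPTP, 8.73 and 8.87 in acupoint, and 8.96 and 8.87 in non-acupoint mice, which put both controls lowest. Sf3b1 ran from 9.54 on control replicate 2 to 9.87 on the non-acupoint arrays, and Sf3b5 from 6.10 on that control to 6.45 on non-acupoint replicate 1. Sf3b1 was at 0.15 (SE 0.08), Sf3b2 at 0.22 (SE 0.09), Sf3b4 at 0.004 (SE 0.13), Sf3b5 at 0.22 (SE 0.12) and Sf3b6, the branch point contacting subunit, at 0.33 (SE 0.16). Across the 2 complexes 8 of 9 differences were positive, against 9505 of 16026 over all genes, and 7 of 9 were after quantile normalization and 5 of 9 after cyclic loess.

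Among the Sm ring genes the 2 that passed encode the partners of 1 building block of the ring, the D3-B pair. Snrpd3 read 9.43 and 9.57 on control, 9.91 and 9.91 on MPTP, 9.64 and 9.998 on acupoint, and 9.99 and 9.82 on non-acupoint arrays. It rose by 0.41 (SE 0.12, limma adjusted p = 0.0410). Snrpb read 8.07 and 8.25 on control, 8.61 and 8.48 on MPTP, 8.47 and 8.54 on acupoint, and 8.56 and 8.33 on non-acupoint arrays. It rose by 0.39 (SE 0.11, limma adjusted p = 0.0344). Neither overlapped with its controls on any of the 6 other arrays.

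The other ring subunits measured, Snrpd1, Snrpd2, Snrpe and Snrpg, were at -0.026, -0.020, -0.069 and -0.075 (SE 0.12, 0.09, 0.17 and 0.11), and none passed. Snrpg, with the lowest mean signal of the Snrp probe sets, read 7.29 on acupoint replicate 1 and 7.44 to 7.61 on the other 7 arrays. Within an array Snrpd3 minus Snrpd1 was 0.54 and 0.33 in controls and 0.67 to 0.89 elsewhere, and Snrpb minus Snrpd2 was -0.63 and -0.58 in controls and -0.34 to 0.006 elsewhere. Snrpb and Snrpd3 did not pass after a further quantile normalization or cyclic loess in this comparison. The U1 proteins Snrpa and Snrpc were at -0.005 (SE 0.12) and 0.023 (SE 0.10). The 2 U2 proteins that bind the same stem of U2 RNA, Snrpa1 and Snrpb2, were at 0.27 (SE 0.13) and 0.32 (SE 0.13) and did not pass.

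Of the SR genes the largest positive differences were those of Srsf10, a splicing repressor when dephosphorylated, and Srsf1, a prototype of the family. Srsf10 read 8.99 and 8.88 on control, 9.30 and 9.24 on MPTP, 9.08 and 9.44 on acupoint, and 9.31 and 9.22 on non-acupoint arrays, which put both controls lowest. Its difference was 0.33 (SE 0.11, limma adjusted p = 0.0758). A second Srsf10 probe set differed by 0.33 (SE 0.17, limma adjusted p = 0.223). Srsf1 was at 0.30 (SE 0.11, limma adjusted p = 0.0923), with 9.59 and 9.26 on control arrays and 9.59 to 9.79 on the other 6. Srsf11, which promotes neuronal microexons, read 8.14 and 8.00 on control, 7.81 on both MPTP, 7.64 and 7.90 on acupoint, and 7.81 and 7.80 on non-acupoint arrays. It was at -0.25 (SE 0.11, limma adjusted p = 0.137), and it passed as lower with either rescaling, quantile or loess.

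Srsf2, Srsf3, Srsf4, Srsf5, Srsf6, Srsf9 and Srsf12 lay between -0.13 and 0.20, and none passed. Srsf3 ran from 10.34 on control replicate 2 to 10.67 on non-acupoint replicate 1, and Srsf12 from 6.61 and 6.68 in control to 6.77 to 6.94 in all other mice. Srsf3, with a mean signal of 10.55, the highest of the SR probe sets, was at 0.10 (SE 0.09), and Srsf12, with the lowest mean signal, 6.80, was at 0.20 (SE 0.11). Of the 2 further Srsf3 probe sets 1 was at 0.15 (SE 0.10) and the other at -0.022 (SE 0.19).

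**Figure D5:**
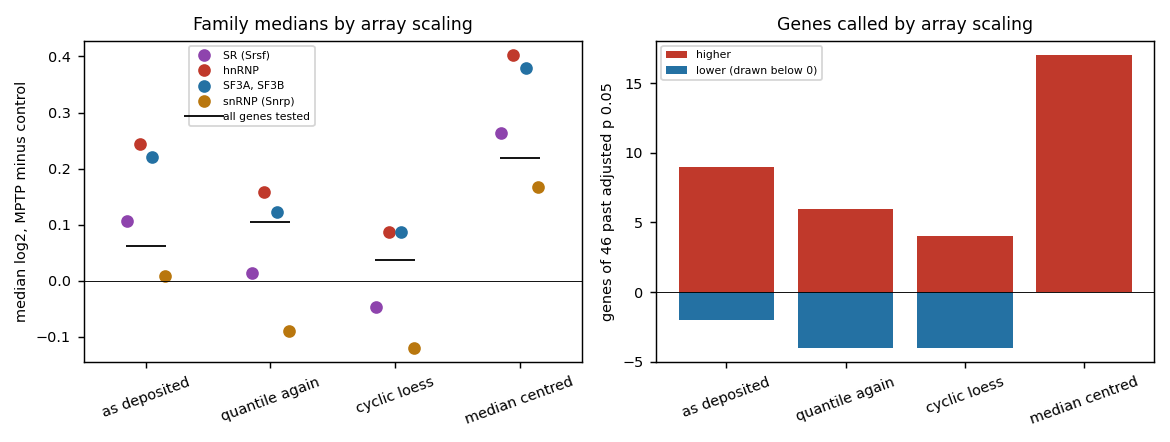
Left, median log2 difference of MPTP minus control for each family (points) and all genes tested (lines) under 4 array scalings; right, the number of the 46 genes past an adjusted p of 0.05, with lower genes drawn below 0. The count of higher and lower genes is 9 and 2 as deposited, 6 and 4 after quantile normalization, 4 and 4 after cyclic loess and 17 and 0 after median centring. The Hnrnp median lies above and the Snrp median below that of all genes in each scaling, an order that median centring cannot change. The sign of the Snrp median itself is negative after quantile normalization and cyclic loess and that of Srsf after cyclic loess.

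The comparison of all 6 arrays from MPTP-injected mice, as the mean of the 3 groups, with the 2 control arrays has the same controls, so it adds treated arrays but no further control. It called 18 of the 46 genes, 15 higher and 3 lower, against 25.2% of all genes tested (19.9% higher and 5.35% lower). The 11 genes above were among them. Added were Hnrnpr at 0.52 (SE 0.13), Hnrnpm at 0.31 (SE 0.08), Hnrnpd at 0.28 (SE 0.06), Hnrnpc at 0.26 (SE 0.08), Srsf10 at 0.33 (SE 0.09) and Sf3b2 at 0.22 (SE 0.07) as higher, and Srsf11 at -0.27 (SE 0.09) as lower. The limma adjusted p was 0.0474 for Sf3b2 and 0.0476 for Srsf11, both close to the threshold, and 0.039 for Hnrnpc. The second Srsf10 probe set did not pass, at 0.24 (SE 0.14, limma adjusted p = 0.246). In this comparison 11 of 17 Hnrnp genes passed, 9 higher, and 2 of 10 Srsf, 3 of 9 Sf3 and 2 of 10 Snrp genes did. Hnrnph2 was at 0.89 (SE 0.08, limma adjusted p = 0.000510). Both controls lay outside the range of the 6 other arrays for 25 of the 46 genes, against 36.9% of all genes, 20 of them with controls lowest (26.1% of all genes) and 5 with controls highest (10.9% of all genes).

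With quantile normalization repeated 12 genes passed as higher and 4 as lower, beside 20.1% and 6.7% of all genes. With cyclic loess the counts were 7 and 5 (13.8% and 8.31% of all genes), and with median centring 26 and 1 (33.8% and 2.19%). Without control replicate 2, the array with the most muscle signal, 6 genes passed, beside 8.76% of all genes: Hnrnph2, Hnrnpa0, Hnrnpk, Sf3a3 and Sf3b3 as higher and Hnrnpdl as lower. Without MPTP replicate 1 the count was 11 (16.2% of all genes). Acupoint replicate 1 and control replicate 1 both had high muscle (6.99 and 7.48) and meningeal (8.49 and 8.26) marker means. The first minus the second was 0.63 for Hnrnph2, 0.58 for Hnrnpa0, 0.46 for Sf3b3 and -0.66 for Hnrnpdl, and near 0 for Hnrnpr (0.021), Sf3b2 (0.031) and Hnrnpm (0.073). Both arrays entered the fit that called these genes, so the signs are no separate support.

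Each needled group can also be set beside its controls, which are the same 2 arrays. Acupoint needling with MPTP minus control called 8 genes, 7 higher and 1 lower, beside 11.7% of all genes tested (9.55% higher and 2.17% lower). Non-acupoint needling with MPTP minus control called 12, 11 higher and 1 lower, beside 19.2% of all genes tested (15.4% higher and 3.87% lower). The 8 genes passed in all 3 comparisons with control: Hnrnph2, Hnrnpa0, Hnrnpul2, Hnrnpf, Hnrnpk, Sf3a3 and Sf3b3 as higher and Hnrnpdl as lower. For Hnrnph2 the differences were 0.84 in MPTP, 0.85 in acupoint and 0.98 in non-acupoint mice (SE 0.10 each). For Hnrnpdl they were -0.49, -0.60 and -0.43 (SE 0.10 each), and for Sf3a3 0.60, 0.44 and 0.60 (SE 0.10 each). Acupoint minus control fell to 1 called gene without control replicate 2 (1.55% of all genes), to 4 and 5 without MPTP replicate 1 and 2 (5.23% and 5.28%), and rose to 16 without acupoint replicate 1 (23.3%). Non-acupoint minus control fell to 1 without non-acupoint replicate 1 (2.41% of all genes), 5 without non-acupoint replicate 2 (6.87%) and 4 without control replicate 2 (6.2%), and rose to 20 without either acupoint array (28.9% each). Over the 4 groups together, limma's F-test called 8 of the 46 genes, against 10.8% of all genes. It called 0 without control replicate 2 (0.125% of all genes), 1 to 5 without control replicate 1 or an MPTP or non-acupoint array (2.55% to 4.32%), and 17 and 19 without acupoint replicate 1 and 2 (22.3% and 25.1%).

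Whether needling moved these genes in MPTP mice was asked by comparing each needled group with MPTP alone. At an adjusted p of 0.05 limma called none of the 46 genes in either comparison (0% of all genes tested), and at an unadjusted p under 0.05 there were 0 for acupoint and 1 for non-acupoint needling, where 201 and 273 of 16026 genes were. The median log2 difference was -0.033 for acupoint and 0.031 for non-acupoint needling, against -0.010 and -0.006 over all genes. The SEs ran from 0.077 to 0.205. Acupoint and MPTP arrays were fully separate for 4 of the 46 genes (24.3% of all genes), and non-acupoint and MPTP arrays for 17 (36.3% of all genes), 12 higher (17.1%) and 5 lower (19.2%).

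Acupoint minus MPTP ran from -0.23 to -0.010 over the 10 Snrp genes, none of which passed, and was negative for 8569 of 16026 genes in all. With acupoint replicate 2 alone set against the MPTP mean, 5 of the 10 were negative. The 4 genes whose arrays were separate were Snrpd2 at -0.17 (SE 0.09), Sf3a3 at -0.16 (SE 0.10), Srsf4 at -0.13 (SE 0.08) and Sf3b3 at 0.13 (SE 0.08), each with a limma adjusted p of 1. In non-acupoint minus MPTP the U1 protein gene Snrpa was at -0.26 (SE 0.12), with 8.62 and 8.60 on non-acupoint and 8.86 and 8.89 on MPTP arrays. Srsf5 was at 0.25 (SE 0.21) and Srsf4 at -0.18 (SE 0.08), each also with a limma adjusted p of 1.

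Acupoint minus non-acupoint needling called none of the 46 genes (0% of all genes tested), with 2 at an unadjusted p under 0.05, where 604 of 16026 genes were. Those were Srsf5, at -0.55 (SE 0.21), and Snrpa1, at -0.32 (SE 0.13), each with a limma adjusted p of 0.936. Snrpa was at 0.25 (SE 0.12), and these arrays were separate for 14 of the 46 genes (28.3% of all genes), 3 higher (15.2%) and 11 lower (13.1%). Srsf5 read 9.17 and 9.93 in acupoint and 10.18 and 10.01 in non-acupoint mice, beside 9.75 and 9.95 in MPTP and 10.11 and 9.85 in control mice. Acupoint replicate 1 alone was low. The other probe set of Srsf5 read 9.16 on that array and 9.91 on acupoint replicate 2. That probe set also gave nearly the same MPTP minus control difference (-0.14 against -0.13).

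The same array was lowest of all 8 for 12 of the 46 genes. On it Snrpe read 7.45 against 7.85 to 8.07 on the other 7 arrays, and Snrpa1, Snrpb2 and Sf3b6 read 7.63, 8.36 and 7.29, each the lowest value of the gene. When acupoint replicate 2 was left out, so that this array stood for its group, 4 genes passed as lower than in non-acupoint mice, beside 3.88% of all genes: Srsf5 (-0.93), Snrpe (-0.60), Snrpa1 (-0.53) and Snrpb2 (-0.50). Without acupoint replicate 1 the count was 0. Control replicate 2 was lowest for 21 genes, and non-acupoint replicate 1 was highest for 20. The shares over all genes were not computed for these lowest and highest counts. They are therefore not read as particular to the 46 genes.

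Other genes of the splicing pathway were read from lists, leaving out the genes above. Their counts and differences are from the deposited values alone and were not followed through the other scalings or with arrays left out. In MPTP minus control, of 26 genes of the catalytic steps and the Prp19 complex 11 were higher and 1 lower, with a median of 0.33. Ctnnbl1, a spliceosome-associated protein gene, rose by 0.66 (SE 0.09), the ubiquitin ligase gene Prpf19 by 0.39 (SE 0.08), and Cwc22, which loads the exon junction complex, by 0.44 (SE 0.10). Prpf39, a U1-associated factor that was kept in the same list, fell by 0.60 (SE 0.17). Of 30 proteins of the U1, U4, U5, U6 and minor particles 8 were higher and 1 lower, with a median of 0.22. The tri-snRNP genes Prpf31 and Prpf6 rose by 0.78 (SE 0.10) and 0.43 (SE 0.08). Rnpc3, specific to the minor spliceosome, fell by 1.17 (SE 0.15, limma adjusted p = 0.00304), from 7.51 and 7.55 on control to 6.31 and 6.42 on MPTP arrays.

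Genes of the branch point step other than SF3A and SF3B gave 2 higher and 1 lower of 12, with a median of 0.19. Htatsf1, a partner of SF3B1 in the U2 particle, rose by 1.15 (SE 0.13), and the branch point binding protein gene Sf1 fell by 0.42 (SE 0.08). SR-related proteins gave 1 higher and 5 lower of 27, with a median of 0.10: Rsrp1 fell by 0.75 (SE 0.10), Srrm1 by 0.56 (SE 0.09), Son by 0.42 (SE 0.08) and Srrm2 by 0.39 (SE 0.07). The last 3 encode large proteins of nuclear speckles. The gene counted as higher was Scaf11, named after its value was seen, at 0.39 (SE 0.08).

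Of 6 SR protein kinases none passed in MPTP minus control, with 4 at an unadjusted p under 0.05, where 5062 of 16026 genes were. With the 3 MPTP groups averaged and set against control, 4 of the 6 passed, 1 higher and 3 lower. Over all genes 25.2% passed in that comparison, 19.9% higher and 5.35% lower. In it Clk1 and Clk4 fell by 0.44 (SE 0.13) and 0.42 (SE 0.08), and Srpk1 rose by 0.23 (SE 0.07). Srpk3, a kinase gene of striated muscle, fell by 0.57 (SE 0.15), with 5.55 and 6.14 on control and 5.17 to 5.38 on the other arrays, beside the muscle markers given above. Clk1 read 8.33 on acupoint replicate 1 and 8.80 to 9.45 on the other 7 arrays.

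Of 46 tissue-specific and other splicing regulators 11 were higher and 4 lower, with a median of 0.12. Celf4, a neuronal regulator, rose by 0.58 (SE 0.11) and Syncrip by 0.59 (SE 0.13), and the stress granule gene Tia1 fell by 0.59 (SE 0.11), as did its relative Tial1 by 0.51 (SE 0.11). Of 14 SMN complex and snRNP assembly genes 1 passed, the snRNP import adaptor Snupn at 0.53 (SE 0.15). Of 12 exon junction and decay genes Upf2 rose by 0.49 (SE 0.13) and the kinase gene Smg1 fell by 0.73 (SE 0.12). Among 12 nuclear-retained or intron-detaining transcripts 9 fell and none rose, with a median of -0.95. All of these lists were chosen with earlier results of these data known, and this last one with results for several of its members known. None of them is independent evidence of direction. Over all genes 13.7% passed as higher and 3.1% as lower in MPTP minus control, which are the shares to set beside the list counts of that comparison.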

How the data were processed

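The values the authors deposited are on a log2 scale, one for each probe set on each array. Per the submitters' processing notes the values were made with Affymetrix Expression Console and RMA, which corrects background, equalises probe distributions across arrays and summarises probe sets on a log scale. Versions are not given in the sources used here, and base 2 was inferred from the size of the values. Of 35557 probe sets, 21789 had 1 gene symbol, 1621 several and 12147 none.

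For genes with several probe sets the one with the highest mean was used (10 of the 46). Group means of 16026 genes over 8 arrays were fitted with limma 3.58.1 in R 4.3.3 (eBayes with an intensity trend, 4 residual degrees of freedom), two-sided, with Benjamini-Hochberg adjustment over all genes in each contrast and a threshold of 0.05. The fit was tested on simulated data. Array values are given for genes past the threshold in MPTP, or in all MPTP-injected groups averaged, minus control, up to 8 a family by size of difference, and, as values or a range, for the brightest and dimmest gene of each family. For each needling contrast the 3 largest differences are named, separate arrays first. Of each list up to 4 genes with the smallest p are named. Array values of Hnrnpul1, Hnrnpd, Srsf1, Srsf5 and Snrpe, the within-array pairs, the SR protein kinases, Scaf11 and Prpf39 were chosen after values were seen. Members, lists and alternatives were chosen with earlier results of these data known. Gene identifiers of all 46 matched RefSeq (GRCm38.p6), which gave the promoters. Alternatives were array scaling, the low-value filter, the variance model, the groups fitted, probe set averaging, a replicate block and each array left out. Leaving out control replicate 2 and acupoint replicate 1 together, and fitting each probe set, were added after seeing the data. The number of arrays limits the precision. No batch was tested, since scan times are not used here. Plots used matplotlib 3.10.9 in Python 3.11.15.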

Additional observations from a re-analysis of the deposited data

How the results depend on the processing

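Of 282 counts and medians recomputed for the 46 genes, 231 stayed within 1.5 times the count or within 1 SD of the median. Many medians could not move: the variance model, low-value filter, block and arrays outside a contrast do not enter them. Between the MPTP groups nearly every count stayed at 0. In MPTP, or the averaged MPTP groups, minus control, no gene difference called as deposited changed sign. Signs in the other comparisons were not tracked. Counts of called genes that moved were, in MPTP minus control, 17 with arrays centred on their medians, 6 without the intensity trend and 7 with the replicate block. In acupoint minus control they were 5 without the trend, 1 with only the groups compared and 16 without both control replicate 2 and acupoint replicate 1. In non-acupoint minus control they were 21 after centring, 6 without the trend and 20 without both arrays. The F-test gave 5 after cyclic loess, 2 without the trend and 14 without both arrays. The median difference in MPTP minus control was 0.074 after quantile normalization, 0.032 after cyclic loess and 0.322 after centring. For acupoint minus control it was 0.022 after cyclic loess and 0.25 after centring. For non-acupoint minus control it was 0.109, 0.053 and 0.375 after quantile normalization, cyclic loess and centring, and for the mean of the MPTP groups 0.100, 0.056 and 0.332. The cause of these moves was not tested, except that centring shifts every gene by the same amount on an array. With 1 array left out, called genes ranged from 1 to 21 in MPTP minus control, 0 to 4 in acupoint minus non-acupoint, 1 to 16 in acupoint minus control, 1 to 20 in non-acupoint minus control, 6 to 24 with the MPTP groups averaged and 0 to 19 in the F-test. The shares of all genes called moved too, from 0.431% to 26.4%, 0% to 3.88%, 1.55% to 23.3%, 2.41% to 28.9%, 8.76% to 36.6% and 0.125% to 25.1% in the same order. A lone array is then assumed to vary like the other groups. The medians ranged from 0.137 to 0.251 in MPTP minus control, -0.112 to 0.028 in acupoint minus MPTP and 0.128 to 0.257 in non-acupoint minus control. Deviations from the group means of same-numbered arrays correlated at -0.328 to 0.174 between groups, across genes. With 2 arrays a group each group gives 1 such pattern, so this cannot decide whether replicate numbers pair the arrays. The block gave 7 genes in MPTP minus control against 11, and 8, 9 and 15 in acupoint, non-acupoint and averaged MPTP groups minus control.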
